A study of Arabidopsis thaliana with 24 samples.

Results

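The genes described here had lower transcript levels after sucrose and lower levels in light, in shoots of Arabidopsis thaliana that had been starved of both. They were taken from the probe sets that the annotation assigns to 1 gene, with the brightest probe set standing for its gene. A gene was taken if its mean intensity over all 24 arrays was at least 100, its mean log2 intensity was lower by at least 0.7 on the 12 arrays with sucrose than on the 12 without, and lower by at least 1 on the 12 arrays in light than on the 12 in darkness. Of 13,350 named genes, 7,841 reached the intensity, and 67 met all 3 conditions. Of these, 10 were left out by name, namely AT3G15450, AT1G56220, AT2G20670, AT3G15630, AT3G62950, GAT1_2.1, AKINBETA1, IVD, MCCA and MCCB, which leaves 57 genes. The genes were thus chosen by their sucrose and light effects, which are given as a description, without a test.

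The arrays compared sdg8-5 and WT plants, both 3 weeks old and grown in hydroponic culture with 1% sucrose in long days. The sdg8-5 line carries a fast-neutron deletion of SDG8, a histone methyltransferase gene, which also removes part of the neighbouring gene AT1G77310. WT is the unmutagenized parent, and both lines carry a transgene with the ASN1 promoter in front of the hygromycin resistance gene HPT2. All plants spent 24 h without sucrose in darkness and then 2 h under 1 of 4 treatments: 1% sucrose with light of 70 µE, light alone, sucrose alone in darkness, or neither, which continued the starvation. The 24 ATH1 arrays hold 3 biological replicates of each of the 8 combinations of genotype and treatment. The probe annotation used here lists no probe set for SDG8, and the genotype labels were not checked against its transcript.

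In plants, sugars made in light feed growth, and when both sugar and light run out, shoots turn to breaking down proteins, lipids and cell contents. Many transcripts build up in this starved state and decline soon after sugar or light returns. Autophagy is one of the pathways that recycle cell material in starved leaves, and expansins are proteins that loosen the cell wall during growth. Of the 57 genes, 7 have a symbol in the files (ATG8E, EXPA8, COR27, SIS, ATL8, CCL and bHLH121), and the other 50 are listed by locus only. ATG8E is a member of the ATG8 family, small proteins that are attached to autophagosome membranes. EXPA8 is an alpha-expansin, ATL8 is a RING-type protein of the ATL family, and COR27 is a cold-regulated gene. SIS is named as a salt-induced serine-rich protein, CCL as a CCR-like gene, and bHLH121 is a helix-loop-helix transcription factor. AT5G61590 is DEWAX, an AP2/ERF-type repressor of wax synthesis, AT4G37220 belongs to the WCOR413 cold acclimation family, AT3G19850 to the NPH3 family of phototropic-responsive proteins, and AT3G47160 to the RING/U-box proteins.

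The intensities are MAS5 values scaled by the authors to the same trimmed mean, which was 500 on every array. Between arrays of 1 condition, log2 values correlated at 0.914 to 0.942. Of the green tissue markers, RCA, the activase of rubisco, had intensities of 4418 to 18350. Of the 5 measured root markers, PYK10, a beta-glucosidase gene, had intensities of 3406 to 8568, while EXPA7, EXPA18, PRX72 and AT4G20450 had medians of 7.69 to 62.4. The 3 measured flower and pollen markers AMS, AT5G07230 and LCR66 had medians of 12.6 to 27.0. The 25S rRNA control probe set was higher in sdg8-5 than in WT by 1.56 on the log2 scale. Its log2 difference was -0.99 between arrays with and without sucrose and -2.99 between light and darkness. Its part in the results was examined only by adding it to the fit. The bioC hybridization control divides the arrays into 12 of lower signal (4 sdg8-5, 8 WT) and 12 of higher signal (8 sdg8-5, 4 WT). All arrays of replicate 1 were of lower signal and all of replicate 3 of higher signal. In replicate 2 all WT arrays were lower and all sdg8-5 arrays higher, so there signal group and genotype cannot be told apart. In shoots of mixed tissues, fewer cells of a type cannot be told apart from less RNA per cell.

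Averaged over both genotypes, all 57 genes had their lowest mean with sucrose and light together and their highest mean with neither. In WT taken alone, AT3G51400 had a mean of 45.64 with both and a lower mean of 26.87 in light alone. AT4G10910 had 69.88 with both in WT, against 63.29 in light alone and 66.72 with sucrose alone. The median of the 57 gene means was 270.1 with sucrose and light, 425 in light alone, 590.7 with sucrose alone and 1318 with neither. With sucrose and light, 4 genes had a mean under 40, near the background of these arrays, and 9 had a mean under 100. With neither, the lowest gene mean was 200, that of AT5G45310. On single arrays the median over the 57 genes was 247, 271.3 and 301.6 in sdg8-5 with sucrose and light, against 205.8, 272.1 and 231.8 in WT. In light alone it was 462.2, 508.8 and 395.8 in sdg8-5, against 428.8, 462.9 and 475.6 in WT. With neither it was 1231, 1299 and 1275 in sdg8-5, against 1671, 1148 and 1328 in WT. In these 3 treatments the arrays of the 2 genotypes overlapped. With sucrose in darkness the medians were 510.9, 492.3 and 372.4 in sdg8-5, against 649.7, 645.5 and 696.3 in WT, and here the 3 sdg8-5 arrays all lay below the 3 WT arrays.

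**Figure D1:**
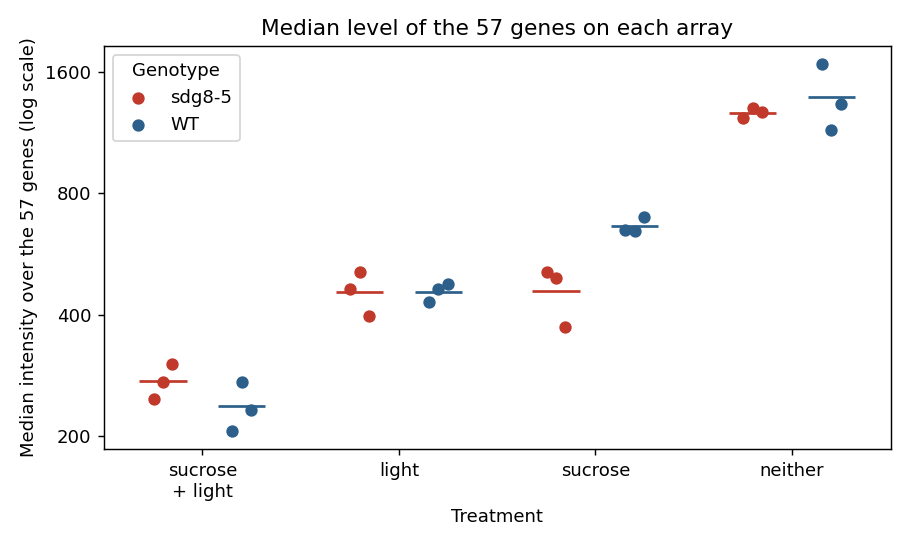
Each point is 1 array, the vertical axis (log scale) is the median MAS5 intensity over the 57 genes, and the horizontal line is the mean of 3 arrays. The levels are lowest with sucrose and light and highest with neither, and with sucrose alone the sdg8-5 arrays (372.4 to 510.9) lie below the WT arrays (645.5 to 696.3).

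The sucrose effect, meaning the mean log2 difference between arrays with and without sucrose, had a median of -1.15 over the 57 genes (range -2.75 to -0.70). The light effect, the mean log2 difference between light and darkness, had a median of -1.31 (range -2.98 to -1.03). Light was the larger effect in 41 genes and sucrose in 16, an order that the stricter limit for light (-1, against -0.7 for sucrose) favours. The difference between sucrose with light and neither had a median of -2.58 (range -5.74 to -1.76). Arrays were also matched by genotype, the other treatment and replicate number into 12 sets. Of the 57 genes, 36 were lower with sucrose in all 12, 39 were lower in light in all 12, and 27 met both. Same-numbered arrays did not deviate together, so this matching is arbitrary and the counts depend on it. As a description of all named genes with a mean of at least 100, 12.3% were lower with sucrose and 24.1% lower in light at an FDR under 0.05. All 57 genes passed both, as their choice by these effects fixes.

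**Figure D2:**
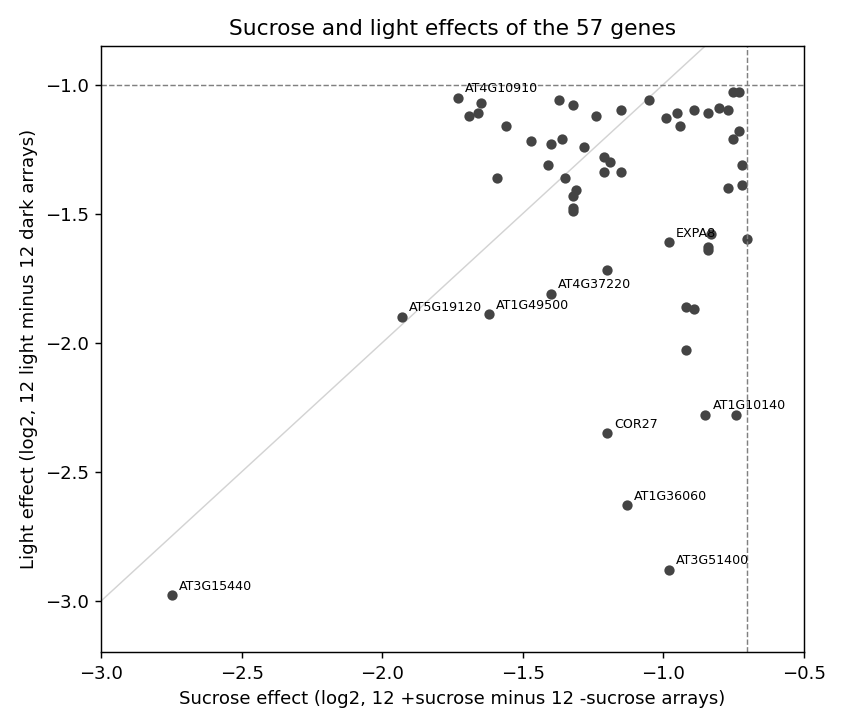
Each point is 1 of the 57 genes, with its sucrose effect on the horizontal axis and its light effect on the vertical axis, both as log2 differences of 12 arrays against 12. The dashed lines are the limits of -0.7 and -1 that chose the genes, and the grey line marks equal effects. AT3G15440 (-2.75 and -2.98) stands apart at the lower left.

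AT3G15440 had the largest differences of the set, with a sucrose effect of -2.75 and a light effect of -2.98. Its intensity was 43.8, 23.5 and 7.16 in sdg8-5 and 1.95, 27.8 and 3.62 in WT with sucrose and light. In light alone it was 119.6, 138.9 and 121 in sdg8-5 and 75.5, 66.1 and 68.8 in WT. The level with both is near background, so the fold between both and neither is not well measured. With sucrose alone it was 118, 56.6 and 67.5 in sdg8-5 and 166, 161.5 and 148.1 in WT, and with neither 582.4, 772.4 and 557.9 in sdg8-5 and 616.4, 429.9 and 502 in WT. The 6 arrays with neither all lay above the other 18. In the TAIR10.1 annotation AT3G15440 is next to AT3G15450 on chromosome 3, with no gene between them, and AT3G15450 was 1 of the 10 genes left out by name (sucrose effect -2.72, light effect -1.87).

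AT5G19120 combined nearly equal effects of sucrose (-1.93) and light (-1.90) with a high level. With sucrose and light it had 416.8, 753.5 and 629.3 in sdg8-5 and 481.9, 534.2 and 533.3 in WT. In light alone it had 3083, 3761 and 3193 in sdg8-5 and 2865, 2995 and 2177 in WT. Every array with both sucrose and light was below every array of the other treatments. With sucrose alone it had 2749, 1835 and 1692 in sdg8-5, against 5337, 3628 and 3729 in WT, and with neither 7418, 8544 and 9363 in sdg8-5, against 8011, 7049 and 6792 in WT.

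In COR27 light was the larger effect (sucrose -1.20, light -2.35). Over the 6 arrays of a treatment, its lowest, median and highest intensities were 8.89, 33.4 and 55.0 with sucrose and light, 31.3, 63.8 and 90.0 in light, 73.8, 160.7 and 197.8 with sucrose, and 227, 326.3 and 582.7 with neither. The arrays with neither did not overlap those of any other treatment, and those with sucrose and light overlapped those in light. AT3G51400 (sucrose -0.98, light -2.88), AT1G36060 (-1.13, -2.63), AT1G10140 (-0.85, -2.28), AT1G33050 (-0.74, -2.28) and AT1G03610 (-0.92, -2.03) also had a light effect beyond -2. For AT1G36060 the medians of the 6 arrays were 124.1 with sucrose and light, 215.5 in light, 635 with sucrose and 1385 with neither.

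AT1G49500 (sucrose -1.62, light -1.89) and AT4G37220 of the WCOR413 family (-1.40, -1.81) complete the 10 genes with the largest sum of both effects. AT1G49500 ran over 600.5 to 931.1 with sucrose and light, 1764 to 3533 in light, 2021 to 3427 with sucrose and 7243 to 9958 with neither. The arrays in light alone and with sucrose alone overlapped in this gene, and no others did.

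In ATG8E sucrose was the larger effect (sucrose -1.65, light -1.07). It had 633.1, 522.3 and 802.1 in sdg8-5 and 261.6, 747.8 and 568.6 in WT with sucrose and light. With sucrose alone it had 1289, 1043 and 490.5 in sdg8-5 and 1313, 1229 and 1701 in WT. It had 1876, 1917 and 1444 in sdg8-5 and 1633, 1756 and 1320 in WT in light alone, and 4264, 3977 and 3025 in sdg8-5 and 3786, 3943 and 3171 in WT with neither. The 2 genotypes overlapped in every treatment. A list of 12 autophagy genes had 9 measured under a name, all of the ATG8 family, and ATG8E is the only one among the 57 genes. All 9 were lower in light at an FDR under 0.05, with 5 of them lower with sucrose and none higher. Among named genes with a mean of at least 100, 24.1% were lower in light, 12.3% lower with sucrose and 18.1% higher with sucrose. Outside the 57 genes, ATG8F had a sucrose effect of -0.68 (standard error 0.11) and a light effect of -0.76 (0.11), and ATG8H had the same effects of -0.68 (0.12) and -0.76 (0.12). ATG8B had effects of -0.10 (0.10) with sucrose and -0.51 (0.10) in light, so that it passed the test for light only. Members of this family have similar sequences, and their probe sets may not separate them fully.

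The brightest of the 57 genes was CCL, which had 1994 to 3526 with sucrose and light, 4977 to 7223 in light, 3109 to 9552 with sucrose and 13340 to 17750 with neither. AT1G72060, AT1G49500, AT5G19120, AT5G61590, AT3G26510, AT2G30930 and AT4G05070 follow it in the order of mean intensity, a rank that also depends on each probe set's own response. AT5G61590 (DEWAX; sucrose -1.36, light -1.21) had medians of 903.8 with sucrose and light, 2803 in light, 2272 with sucrose and 5877 with neither. ATL8 (-1.56, -1.16) had medians of 162.4, 388.4, 309.2 and 1106 in the same order. bHLH121 (-0.84, -1.63) had medians of 338.6, 466.3, 863.9 and 1812. It lies next to AT3G19850 (-0.89, -1.87), also 1 of the 57 genes, on chromosome 3 with no gene between them.

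Some genes lay close to the limits. AT1G19540, with a sucrose effect of -0.70, and AT2G30930, with a light effect of -1.03, were just inside, as was AT5G45310, with a mean intensity of 100.6. Just outside were AT1G22890 (sucrose effect -0.69), AT3G61260 (light effect -0.99) and AT3G01175 (mean intensity 89.8). Within 0.1 of a limit, 10 of the 57 genes were inside that for sucrose and 9 inside that for light, while 14 and 11 other genes were as close on the outside.

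Whether sucrose and light lower these genes by the sum of both effects was examined with the interaction of sucrose and light, which the choice of genes did not use. It was the log2 sucrose effect in light minus that in darkness, averaged over the genotypes, and a positive value means that sucrose lowered the gene less in light than in darkness. It was positive in 45 of the 57 genes, with a median of 0.38, against 41.3% positive and a median of -0.06 over named genes with a mean of at least 100. The median sucrose effect was -0.96 in light and -1.25 in darkness. Of single genes, 3 passed the FDR of 0.05, all positive, and none was negative at this threshold, against 0.115% positive and 0.23% negative calls among the named genes with a mean of at least 100. At an unadjusted p under 0.05 there were 19 genes in either direction, against 986 of those 7,841 named genes. Over the 48 genes with a mean of at least 100 in each treatment, 38 were positive, with a median of 0.36 and the same 3 calls.

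The 3 genes were AT1G50040, AT1G76590 and AT2G31945. AT1G50040 had 93.8, 120.1 and 98.0 in sdg8-5 and 102.5, 140.8 and 62.8 in WT with sucrose and light. It had 152.7, 208.2 and 175.9 in sdg8-5 and 120.7, 120.6 and 121.8 in WT in light alone, and 182.6, 126 and 108.8 in sdg8-5 and 177.1, 234.5 and 185.1 in WT with sucrose alone. With neither it had 1064, 835.3 and 737 in sdg8-5 and 960.2, 414.7 and 431.2 in WT. The arrays with neither were all above the rest, and those of the other 3 treatments overlapped. Its sucrose effect was -0.55 in light and -2.09 in darkness, an interaction of 1.53 (standard error 0.30, FDR = 0.0388, limma).

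AT1G76590 had a sucrose effect of -0.60 in light and -1.81 in darkness, an interaction of 1.21 (standard error 0.25, FDR = 0.0396). Its mean was 164.2 ± 35.8 with sucrose and light, 249.5 ± 59.2 in light, 287 ± 108 with sucrose and 952.8 ± 154 with neither (SD, n = 6 arrays each). AT2G31945 had -0.77 in light and -1.87 in darkness, an interaction of 1.10 (standard error 0.23, FDR = 0.0431), with means of 236.3 ± 51.6, 398.4 ± 45.4, 339.7 ± 60.6 and 1268 ± 343 in the same order. In both, the 6 arrays with neither lay above all the others. AT5G19120 had the opposite order, with -2.44 in light and -1.42 in darkness, and just missed the threshold (interaction -1.02, FDR = 0.0505). These calls were not stable: in 21 of 27 fits that left out 1 array or 1 replicate number, none of the positive calls remained, and none remained with the 25S signal as a covariate. The three-factor model fitted to linear intensities called 32 of the 57 genes positive, against 1.68% of named genes with a mean of at least 100. On that scale, effects that simply add on the log2 scale give a positive interaction in a gene lowered by both.

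**Figure D3:**
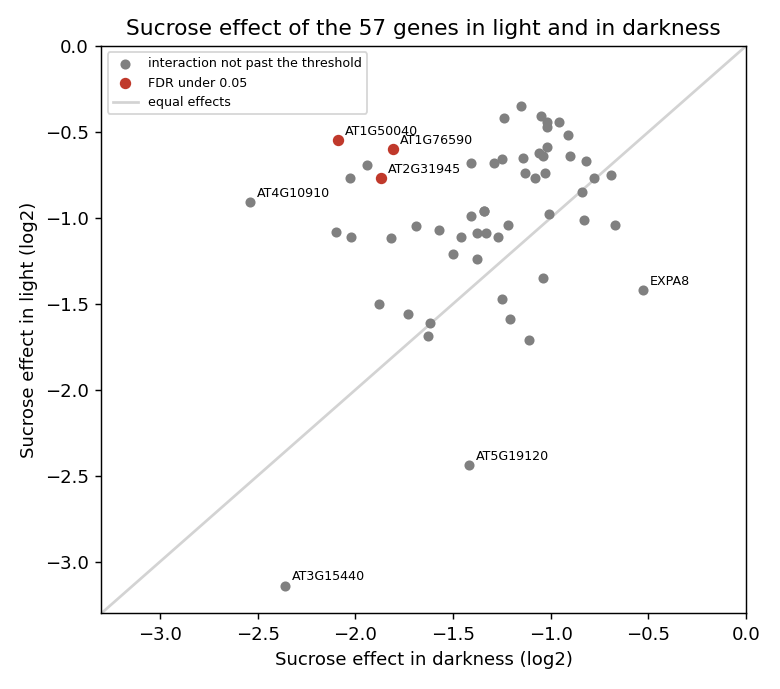
Each point is 1 of the 57 genes, with the log2 sucrose effect in darkness on the horizontal axis and that in light on the vertical axis, and the grey line marks equal effects. Points above the line (45 of 57) had the smaller sucrose effect in light, and the 3 red points passed the FDR of 0.05.

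The comparison of sdg8-5 with WT was not used in choosing the genes. Averaged over the 4 treatments, 10 of the 57 genes were lower in sdg8-5 at an FDR under 0.05 (17.5%) and 4 were higher (7.02%). Among named genes with a mean of at least 100, 13.8% were lower and 12.1% higher, and among all 12,426 named genes tested, 10.1% were lower and 8.50% higher. The median difference over the 57 genes was -0.02, with 31 lower and 26 higher. In 0 of the 57 genes did all 12 sdg8-5 arrays lie to 1 side of all 12 WT arrays, against 1.20% below and 0.357% above among named genes with a mean of at least 100. A fit with the 25S signal added called 7 lower and 0 higher, against 5.41% lower and 3.24% higher among named genes with a mean of at least 100 in that fit. Within the arrays of lower bioC signal 0 genes were lower (2.27% of those named genes) and 0 higher (0.434%), and within those of higher signal 3 were lower (2.12%) and 0 higher (0.982%).

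**Figure D4:**
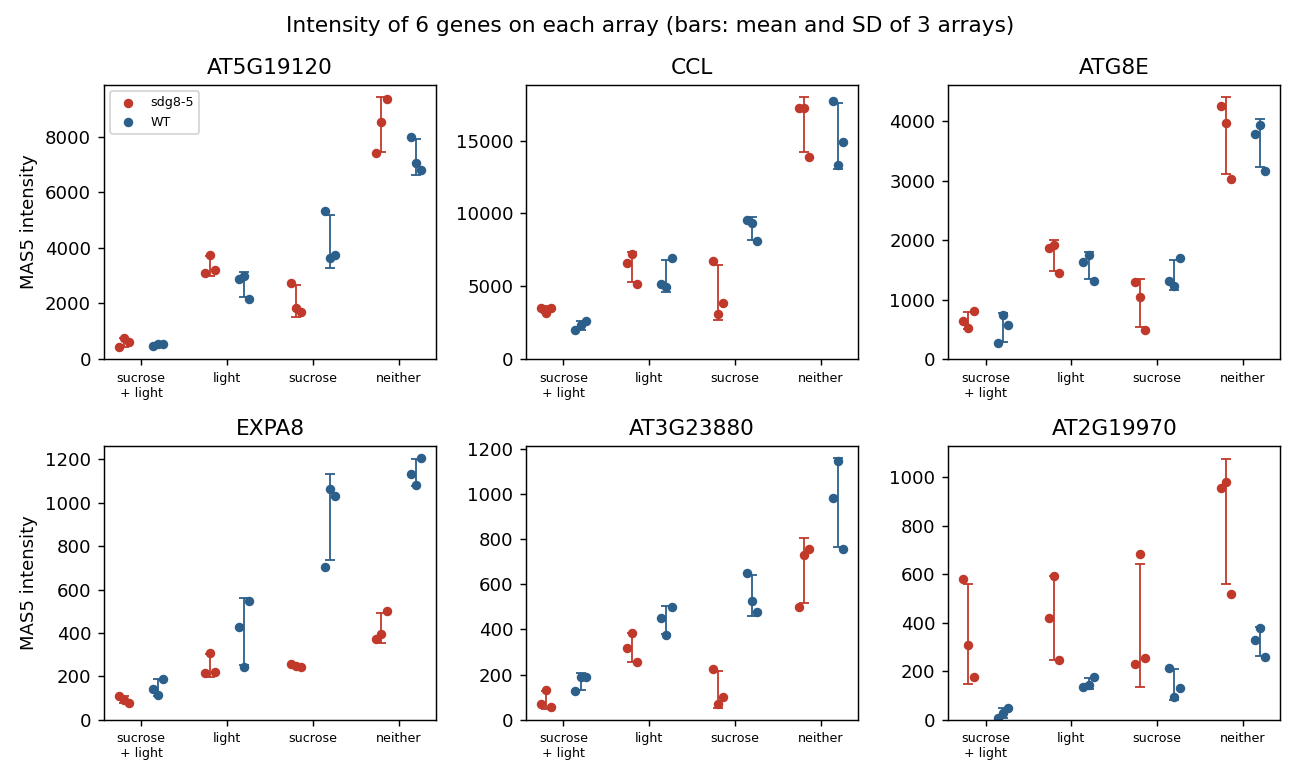
MAS5 intensity (linear axes from 0) of 6 of the 57 genes on each of the 24 arrays, with bars for the mean and SD of 3 arrays. EXPA8 and AT3G23880 are lower in sdg8-5, AT2G19970 is higher in sdg8-5, and AT5G19120 and CCL are lower in sdg8-5 with sucrose in darkness.

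EXPA8 was the most lowered in sdg8-5 (log2 difference -1.16, standard error 0.13, FDR = 4.3e-06, limma). It had 108.3, 91.2 and 75.2 in sdg8-5 with sucrose and light, against 141.6, 114.9 and 188.7 in WT. In light alone it had 217.6, 309.7 and 220.3 in sdg8-5, against 428.8, 240.9 and 548 in WT. This is the only treatment in which the genotypes overlapped. With sucrose alone it had 256.3, 245.8 and 244.9 in sdg8-5, against 704.9, 1064 and 1029 in WT, and with neither 372.4, 393.4 and 502.3 in sdg8-5, against 1131, 1083 and 1206 in WT. Of a list of 10 expansin and xyloglucan cell wall genes, 3 were measured under a name, and only EXPA8 is among the 57 genes. EXPA4 was higher with sucrose (0.53, standard error 0.15) and in light (0.87, 0.15) and higher in sdg8-5 (0.47, 0.15). EXPA15 was higher with sucrose (0.50, 0.13).

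AT3G23880 had a difference of -1.06 (standard error 0.18, FDR = 0.000324). With sucrose and light it had 70.7, 132.1 and 56.6 in sdg8-5, against 125.9, 187.6 and 191.6 in WT, and in light alone 318.3, 386 and 256.5 in sdg8-5, against 451.1, 377.2 and 498.8 in WT. These arrays overlapped. With sucrose alone it had 225.7, 71.4 and 102.9 in sdg8-5, against 649.7, 524.8 and 476.4 in WT, and with neither 498.6, 728.9 and 756.1 in sdg8-5, against 981.8, 1148 and 757.6 in WT, with no overlap in either treatment.

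AT3G15770 (-0.78, FDR = 7.47e-06) and AT3G19850 of the NPH3 family (-0.64, FDR = 2.75e-05) had all 3 sdg8-5 arrays below all 3 WT arrays in each of the 4 treatments. AT3G15770 had 160.4, 159.6 and 174.4 in sdg8-5 with sucrose and light, against 190, 319.1 and 231.8 in WT, and with neither 644.5, 636.9 and 641.8 in sdg8-5, against 1080, 1122 and 1335 in WT. AT3G19850 had 242.5, 242 and 270.1 in sdg8-5 with sucrose and light, against 352.2, 448.5 and 393.6 in WT, and with neither 2042, 1779 and 1870 in sdg8-5, against 2568, 2229 and 2436 in WT. bHLH121, the gene next to AT3G19850, had a difference of -0.02 and overlapped in every treatment. AT2G39400 (-0.64, FDR = 0.00394) was the fifth of the most lowered, and AT3G47160, AT1G02660, AT5G16030, AT5G57910 and AT1G25230 were the other 5 lower genes, with differences of -0.63 to -0.34.

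AT2G19970 was the most raised in sdg8-5 (1.99, standard error 0.31, FDR = 0.000146) and had all 3 sdg8-5 arrays above the 3 WT arrays in every treatment. It had 579.8, 308.6 and 176.4 in sdg8-5 with sucrose and light, against 6.41, 26.9 and 49.2 in WT. In light alone it had 418.1, 591.3 and 245.2 in sdg8-5, against 134.8, 141.2 and 175.9 in WT. The largest difference was thus in the treatment in which 2 of the 3 WT arrays were under 40. With sucrose alone it had 229, 681 and 254.5 in sdg8-5, against 213.6, 92.1 and 129.5 in WT, and with neither 953.7, 977.5 and 518 in sdg8-5, against 329.4, 379 and 258.1 in WT.

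AT4G37220 was higher by 1.55 (standard error 0.40, FDR = 0.0108), AT1G23120 by 0.98 (standard error 0.20, FDR = 0.00169) and AT5G23380 by 0.49 (standard error 0.13, FDR = 0.0146). AT4G37220 had 694.5, 782 and 628.6 in sdg8-5 with neither, against 283.9, 149.6 and 107.9 in WT, and 72.6, 20.0 and 87.6 in sdg8-5 with sucrose and light, against 81.1, 16.1 and 14.6 in WT. The genotypes did not overlap with neither, and they overlapped with sucrose and light. AT1G23120 had 360.2, 346.6 and 516.2 in sdg8-5 with sucrose and light, against 109.3, 208.5 and 172.8 in WT. It overlapped only with sucrose in darkness, where 1 sdg8-5 array had 282.9, against 1108 and 1041 on the other sdg8-5 arrays and 421.8, 505.3 and 381.9 in WT.

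The genotypes differed most with sucrose in darkness, a comparison picked out after the values of all 4 treatments had been seen. There, 15 of the 57 genes were lower in sdg8-5 (26.3%) and 0 higher at an FDR under 0.05, against 4.53% lower and 1.84% higher among named genes with a mean of at least 100. At an unadjusted p under 0.05 there were 27 genes, against 1735 of those 7,841 named genes. The difference was negative in 50 of the 57 genes, with a median of -0.60. It was negative in 3814 of the 7,841 named genes with a mean of at least 100, with a median of 0.01. All 3 sdg8-5 arrays lay below all 3 WT arrays in 24 genes (42.1%), against 14.3% of those named genes. They lay above them in 1 (1.75%), against 11.9%. The count of 15 called genes was not stable, with a range of 1 to 17 when 1 array or replicate number was left out. The lowest counts came without a whole replicate number, which leaves fewer arrays in every condition. In the other treatments 1 gene was lower and 1 higher with sucrose and light (1.75% each, against 2.21% and 0.957%), 1 lower and 1 higher in light (1.75% each, against 2.23% and 0.791%), and 3 lower and 0 higher with neither (5.26%, against 4.21% lower and 1.59% higher). Their medians were 0.18, 0.13 and 0.02.

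**Figure D5:**
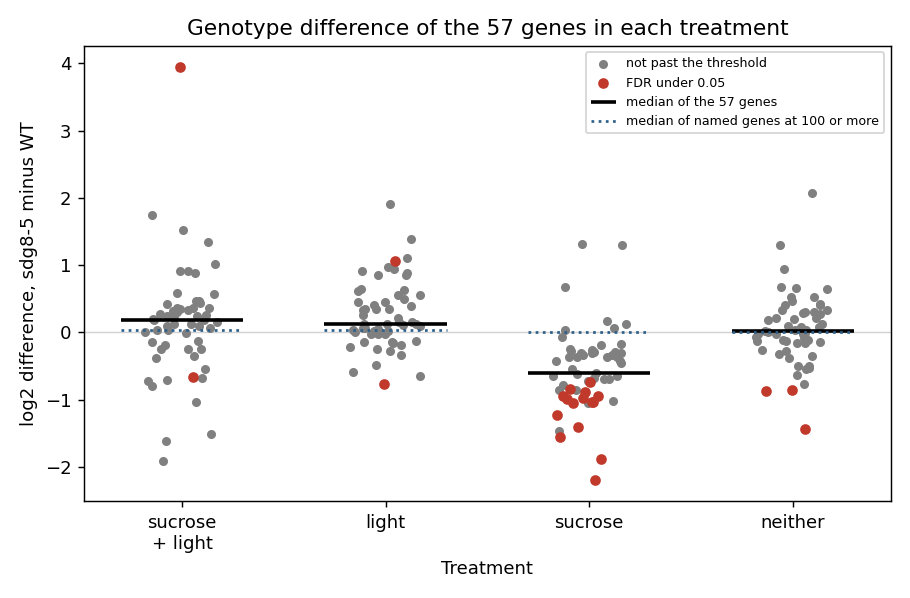
Each point is 1 of the 57 genes, and the vertical axis is its log2 difference, sdg8-5 minus WT, within a treatment, with genes past an FDR of 0.05 in red. The black line is the median of the 57 genes (0.18, 0.13, -0.60 and 0.02 from left to right) and the dotted line that of named genes with a mean of at least 100.

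The 15 genes lower in sdg8-5 with sucrose in darkness were AT3G23880 (-2.20), EXPA8 (-1.88), SIS (-1.56), AT1G02660 (-1.40), AT2G39400 (-1.23), CCL (-1.05), AT5G19120 (-1.03), AT3G47160 (-1.03), AT1G76590 (-0.99), AT5G16030 (-0.98), AT3G19850 (-0.95), AT3G15770 (-0.95), AT4G05070 (-0.89), AT1G25230 (-0.84) and AT3G07350 (-0.74), and 9 of them also passed the threshold for the genotype averaged over treatments. CCL had 6710, 3109 and 3880 in sdg8-5, against 9552, 9313 and 8099 in WT, with sucrose in darkness. With sucrose and light it had 3526, 3160 and 3517 in sdg8-5, against 1994, 2339 and 2579 in WT. With sucrose, the sdg8-5 arrays of CCL were therefore all lower in darkness and all higher in light. It had 6602, 7223 and 5183 in sdg8-5 in light alone, against 5135, 4977 and 6961 in WT, and 17230, 17220 and 13910 in sdg8-5 with neither, against 17750, 13340 and 14890 in WT, with an overlap in both. SIS had 315.8, 124.1 and 77.2 in sdg8-5 with sucrose in darkness, against 416.2, 497.2 and 372.6 in WT. AT4G05070 had 1525, 1004 and 1009 in sdg8-5, against 2269, 1926 and 2272 in WT. In both genes the genotypes did not overlap, and the first sdg8-5 array was the nearest to WT.

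Whether the genotypes differ in their responses was tested with the interactions, at an FDR of 0.15. In darkness the median sucrose effect was -1.56 in sdg8-5 and -0.97 in WT. The difference between these effects was negative in 52 of the 57 genes, with a median of -0.57. Over named genes with a mean of at least 100, it was negative in 3795 of 7,841, with a median of 0.01. But in the 57 genes it passed the threshold in 0, where 0.0128% of those named genes passed in each direction. At an unadjusted p under 0.05 there were 17 genes, against 459 of those 7,841 named genes. With sucrose, the median light effect was -0.78 in sdg8-5 and -1.46 in WT. The difference was positive in 49 genes, with a median of 0.70, against 51.9% positive and a median of 0.01 over those named genes. An unadjusted p under 0.05 was found for 29 genes, against 457 of those 7,841 named genes. The difference passed the threshold in 1 gene, CCL, against 0.051% of named genes with a mean of at least 100. The light effect of CCL with sucrose was -0.35 in sdg8-5 and -1.97 in WT, a difference of 1.62 (standard error 0.32, FDR = 0.145, limma). The count of genes past the threshold was not stable, with a range of 0 to 4 over the alternative fits. It was 0 with median centring, the replicate block and the 25S covariate, and 1 with quantile normalization and with the bioC signal group as a block. Both differences rest on the same sdg8-5 and WT arrays with sucrose in darkness. The 57 genes share these arrays, so the counts by sign are not counts of independent results.

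Averaged over sucrose, the genotype by light interaction was positive in 50 genes, with a median of 0.39. It passed the threshold in 0, against 0.0255% of named genes with a mean of at least 100. At an unadjusted p under 0.05 there were 21 genes, against 520 of those 7,841 named genes. Averaged over light, the genotype by sucrose interaction was negative in 46 genes, with a median of -0.33, and passed in 0, against 0% of the named genes. Its count at an unadjusted p under 0.05 was 15, against 315 of the 7,841. The 3-way interaction also passed in 0 genes, with 7 at an unadjusted p under 0.05, against 294 of the 7,841.

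The 25S signal moved with the genotype in each of the 4 treatments, with all 3 sdg8-5 arrays above all 3 WT arrays. On the log2 scale it was 13.18, 12.56 and 12.68 in sdg8-5 and 10.32, 11.45 and 11.32 in WT with sucrose in darkness. With it as a covariate, the difference was negative in 50 genes, with a median of -0.64, and 10 were called lower, against 2.27% of named genes with a mean of at least 100 in that fit. Within the arrays of lower bioC signal the difference was negative in 38 genes, with a median of -0.21, and within those of higher signal it was negative in 54, with a median of -0.70. None of the 57 genes was called in either, against 0.0765% of those named genes at lower and 0% at higher signal, with 1 sdg8-5 and 2 WT arrays of this treatment at lower signal and 2 sdg8-5 and 1 WT at higher signal. Leaving out 1 of the 6 arrays of this treatment left 47 to 53 genes negative, with medians of -0.75 to -0.41, and 7 to 17 called, against 2.55% to 4.55% of those named genes. Among these fits the lowest count was without the second sdg8-5 array, and 9 were called without the third sdg8-5 array, the second WT array or the third WT array. With every array of a replicate number left out, the count fell further, to 1 without the second number and 1 without the third. Those fits have fewer arrays in every condition, and no share of named genes is given for them.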

How the data were processed

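Shoots of sdg8-5 and WT plants were measured on 24 ATH1 arrays, 3 for each of 8 combinations of genotype, sucrose and light. The authors computed MAS5 signal intensities in R and deposited them untransformed for 22,810 probe sets, scaled to a trimmed mean of 500. In the platform annotation 13,513 of these have a single gene, 503 have several and 8,794 have none. Gene names and neighbours come from the TAIR10.1 annotation, which all 57 genes matched.

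A probe set entered the fit if 1 or more arrays reached 40, which kept 21,552 (62 of them controls) and dropped 1,258. For each, limma 3.58.1 (R 4.3.3) modelled log2 intensity by the means of the 8 conditions, with 16 residual degrees of freedom and 1.813 from the moderated variance. Differences and interactions were contrasts of these means, with Benjamini-Hochberg adjustment across the whole set of fitted probe sets. Calls were made at an FDR under 0.05, or under 0.15 where an interaction involved genotype. The study gives 0.15 for genotype by light only, and it was extended here to the other interactions with genotype. The p-values measure the spread between 3 sets of biological replicates, and the number of arrays limits the precision. The procedure was tested on simulated data. Figures were drawn with Python 3.11.15 and matplotlib 3.10.9.

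The 57 genes and the 14 pathway lists and marker lists were chosen with earlier results of these data known. The genes named are the 10 with the largest sum of sucrose and light effects, the 8 brightest, up to 5 most lowered and most raised in sdg8-5 and up to 6 in each direction for the interactions among those past the threshold, members of the lists, and genes next to each limit. The genes SIS, ATL8, bHLH121, AT3G47160 and the others lower in sdg8-5 or with sucrose in darkness were named after their values were seen. Alternatives were no filter, a filter of 100 on 3 arrays, a pseudocount of 16, median centring, quantile normalization, a three-way ANOVA on log2 and on linear values, trend and robust variance, a replicate block, the bioC signal group of each array as a block, the 25S signal as a covariate, and leaving out each array or replicate number. Fits within the bioC groups and the comparisons within sucrose and darkness were added after the data were seen.

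Same-numbered arrays did not deviate together (correlations of -0.11 to 0.13, median 0.03), so the replicate numbers were not taken to pair the arrays.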

Additional observations from a re-analysis of the deposited data

Results flagged for a closer look

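CCL had a difference between the genotypes in the light effect with sucrose of 1.62 (FDR = 0.145 against the threshold of 0.15), the only one of the 57 genes past it. This call was not stable: 0 genes passed with median centring, the replicate block or the 25S covariate, and 0 to 4 over all alternatives. The light effect of CCL with sucrose was -0.35 in sdg8-5 and -1.97 in WT. The sdg8-5 arrays of CCL were all below those of WT with sucrose in darkness and all above them with sucrose and light, and the comparison was chosen after the data were seen.

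The sucrose effect differed between light and darkness in AT1G50040 (interaction 1.53), AT1G76590 (1.21) and AT2G31945 (1.10), by the interaction test at an FDR of 0.05. In these genes the sucrose effect was -0.55, -0.60 and -0.77 in light, against -2.09, -1.81 and -1.87 in darkness. The calls were close to the threshold (FDR = 0.0388, 0.0396 and 0.0431, limma) and were not stable. Each was lost in 21 of 27 fits that left out 1 array or replicate number, and none remained with the 25S covariate.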

How the results depend on the processing

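The number of genes that met the rule was 43 with the 25S covariate (32 of them among the 57) to 75 with median centring (all 57 among them), 57 with the replicate block, and 47 to 64 when 1 array or replicate number was left out. The counts of genes lower and higher in sdg8-5 were 5 to 13 and 2 to 6 when 1 array or replicate number was left out. With the replicate block they were 11 and 4, against 14.5% and 12.9% of named genes with a mean of at least 100. Percentages in brackets below are shares of those named genes in the same fit. Counts in this section without a percentage have no such share to set them against. With the 25S covariate 0 were higher (3.24%). Within the arrays of lower bioC signal 0 were lower (2.27%) and 0 higher (0.434%). Within those of higher signal 3 were lower (2.12%) and 0 higher (0.982%). The positive interactions of sucrose and light numbered 0 to 4 with an array or replicate number left out and 32 in the three-way ANOVA on linear values (1.68%). They numbered 3 with the replicate block (0.14%), and 0 with the 25S covariate (0.0383%) and within each bioC group (0%). The negative ones numbered 1 with the filter of 100 on 3 arrays, with quantile normalization (0.166%) and with trend and robust variance, and 0 to 1 with an array left out. The genotype by light interaction was called in 7 genes on linear values (0.931%), 3 with trend and robust variance and 0 to 4 with arrays left out. The genotype by sucrose interaction was called in 0 under all alternatives.

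With sucrose in darkness, 7 to 17 genes were lower in sdg8-5 with 1 array of that treatment left out (2.55% to 4.55%). Without replicate 1, 2 and 3 there were 12, 1 and 1, which leaves a range of 1 to 17. Those fits have fewer arrays in every condition, and no share of named genes is given for them. The drop therefore cannot be set against that of all genes. Within the lower and higher bioC groups there were 0 and 0 (0.0765% and 0%). The genotype by sucrose interaction in darkness was called in 0 to 6 genes with arrays left out, in 2 on linear values (0.14%) and in 1 with trend and robust variance. The genotype by light interaction with sucrose was called in 0 to 4 genes with arrays left out, in 2 with trend and robust variance, and in 0 with no filter, median centring, the ANOVA on log2 values, the replicate block, the 25S covariate and within each bioC group. The cause of these changes was not tested. No called result changed direction. The median genotype difference over the 57 genes, -0.02, is close to 0 and changed sign, with a range of -0.08 to 0.10 over the alternatives. Fits within a bioC group rest on 12 arrays, and intensities under 40 are near background.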

Other observations

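Of 4 measured genes of amino acid breakdown outside the leucine pathway, all 4 were lower with sucrose at an FDR under 0.05. In light 2 were lower and 1 higher, and none of the 4 is among the 57 genes. Among named genes with a mean of at least 100, 12.3% were lower with sucrose, 24.1% lower in light and 24.3% higher in light. MGL, a methionine gamma-lyase, had a sucrose effect of -0.44 (standard error 0.15) and a light effect of -1.71 (standard error 0.15). Of the ATG8 family, ATG8D (-0.72, standard error 0.10), ATG8G (-0.47, 0.09) and ATG8B (-0.32, 0.10) were lower in sdg8-5 than in WT, while ATG8E had a difference of -0.02 (0.17). The measured genes of the other lists, 2 SnRK1 subunits, 2 bZIP factors, 3 sugar transporters, 2 low-oxygen genes, 2 genes of fatty acid beta-oxidation, 1 phytochrome and shade gene and 1 clock gene, held none of the 57 genes. In these lists 1 bZIP factor (BZIP53, -0.80) and 1 sugar transporter were lower with sucrose, and 1 low-oxygen gene and 1 phytochrome and shade gene were lower in light. Calls the other way were AKINBETA2 (0.44) and PDC2 (0.66), higher with sucrose, and bZIP44 (0.56), PDC2 (0.78) and GI (1.32), higher in light. No gene of the lists of dark-inducible, class II trehalose-phosphate synthase, senescence and dormancy genes was measured under a name.

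The 57 genes lay on all 5 chromosomes, with 16, 9, 11, 4 and 17 on chromosomes 1 to 5, among 3411, 2169, 2718, 1934 and 2979 named genes.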
